A study of Homo sapiens with 12 samples.

Results

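The BCL2 family genes described here are BCL2, BCL2L1, BCL2L2, MCL1, BAK1, BMF, BCL2L11, BID, BIK and BAD. They were chosen by gene name, and the family was selected on the strong rise of BMF in Hep-G2 cells upon IGF2BP1 knockdown. All 10 genes were found among the 58174 genes listed for each cell line. Since the Hep-G2 comparison chose the family, the values of the 10 genes in Hep-G2 are a description without a test, whereas the same comparison in BE(2)-C was tested.

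Proteins of the BCL2 family control the permeability of the outer mitochondrial membrane. Anti-apoptotic members bind and restrain the effectors BAX and BAK1, which form pores and release cytochrome c when active. BH3-only members respond to various stresses and act by binding the anti-apoptotic members or by engaging the effectors.

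RNA enriched for poly-A tails was sequenced from Hep-G2, a hepatoblastoma-derived line, and from BE(2)-C, a neuroblastoma-derived line. Cells received a control siRNA (siC) or a pool of siRNAs against IGF2BP1 and not its paralogs (siI1), at 15 nM for Hep-G2 and 25 nM for BE(2)-C, and were harvested after 72 h. Each siRNA was represented by 3 libraries per line, named biological replicates by the study, for a total of 12. The IGF2BP1 knockdown rests on 1 siRNA pool, and effects of the pool other than the loss of IGF2BP1 cannot be told apart from it. Each tumour type is represented by 1 established line, and the siRNA dose differed along with the line. The deposited values are FPKM, reads scaled to gene length and to a library size adjusted by the authors. The library with the fewest reads on genes had 12852988 and the one with the most had 15721210.

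Fold changes compare siI1 with siC after adding 0.1 to each FPKM and taking log2, a scale that understates changes of genes with low values. They were fitted with limma over all genes that reached an FPKM of 0.1 in 3 or more of the 6 libraries of a line, and a gene was called at an adjusted p below 0.05. Since 3 libraries against 3 cannot go below 0.1 in a two-sided exact permutation test, each call rests on limma. In Hep-G2, all 10 genes passed the filter, BCL2 through its siC libraries alone. BE(2)-C had 9 of the 10 genes past it, without BIK. The tables of the lines were normalized separately, so levels in the lines are set side by side without a test.

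IGF2BP1 (ENSG00000159217), the target of the knockdown, was lower in every siI1 library than in each siC library of the same line. Hep-G2 libraries held 48.5, 46.6 and 50.8 FPKM with siC against 12.6, 10.7 and 10.7 with siI1, a log2 fold change of -2.10 (SE 0.08, adjusted p = 7.8e-06 from limma). BE(2)-C libraries held 21.3, 20.6 and 21.6 FPKM against 4.85, 4.75 and 4.87, a log2 fold change of -2.11 (SE 0.05, adjusted p = 1.5e-05 from limma).

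The lines were separated by markers of their cells of origin. All 6 Hep-G2 markers (ALB, AFP, APOA1, SERPINA1, TTR and HNF4A) had an FPKM of 1 or more in every Hep-G2 library, and none did in a BE(2)-C library, where AFP and HNF4A were at 0 throughout. The converse held for the BE(2)-C markers PHOX2A, HAND2, GATA3, TH and DBH, with HAND2 at 0 in all Hep-G2 libraries. The Hep-G2 markers summed to 6952, 7022 and 6910.2 FPKM with siC and to 11500, 13155 and 13313 with siI1 in their own line, with ALB the most abundant. The sum was thus higher in every siI1 library, mainly through ALB, APOA1 and SERPINA1, while AFP and TTR fell, with log2 fold changes of -0.59 and -0.77 (adjusted p = 0.0029 each from limma). The part of these markers in the results on the BCL2 family was not tested. Fewer cells of a type and less RNA per cell cannot be told apart in bulk RNA.

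Of markers of other cells, the fibroblast genes COL1A1, COL3A1, DCN, LUM and PDGFRA summed to at most 1.03 FPKM in a Hep-G2 library, with COL1A1 the most abundant and PDGFRA at 0 in 5 of 6 libraries. Their sum in BE(2)-C was 11.4, 10.8 and 11.6 FPKM with siC and 21.6, 22.3 and 20.8 with siI1. Every siI1 library of BE(2)-C thus lay above every siC library, LUM was the most abundant, and none of these 5 genes was at 0. The leukocyte genes PTPRC, CD3E, CD14 and LYZ summed to 1331, 1333 and 1356 FPKM with siC and to 126, 130.1 and 131 with siI1 in Hep-G2, nearly all of it LYZ, while PTPRC was at 0 in 4 of 6 libraries. CD14 went the other way in Hep-G2, from a mean of 0.765 FPKM to 2.15, and rose by 1.38 on the log2 scale (adjusted p = 4.9e-04 from limma). For BE(2)-C that sum came to 2.37, 1.32 and 2.01 FPKM with siC and 0.631, 1.13 and 0.781 with siI1, mostly CD14, with PTPRC at 0 in all 6. The part of these shifts in the results on the BCL2 family was not tested. All 37 mitochondrially encoded genes were listed at 0 in every library, so their share gave no measure of RNA quality.

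Among the anti-apoptotic members, BCL2L1 (ENSG00000171552, chromosome 20 of hg38 from 31664452 to 31723989, minus strand) encodes BCL-XL. Hep-G2 had 177, 191 and 183 FPKM of BCL2L1 with siC and 96.3, 109 and 114 with siI1, a log2 fold change of -0.79 (SE 0.08). All siI1 libraries lay below all siC libraries. For BE(2)-C, the values were 15.01, 14.1 and 14.0 FPKM with siC and 14.5, 14.3 and 16.1 with siI1. These overlapped, with a log2 fold change of 0.06 (SE 0.06, adjusted p = 0.52 from limma). With 1 library left out this value ran from 0.007 to 0.094 and was not called.

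MCL1 (ENSG00000143384, chromosome 1 from 150560895 to 150579738, minus strand) encodes a short-lived protein that restrains BAK1. Hep-G2 libraries gave 95.6, 92.7 and 99.6 FPKM with siC and 43.1, 39.0 and 40.8 with siI1. The highest siI1 library held less than each siC library, and the log2 fold change was -1.23 (SE 0.06). BE(2)-C libraries gave 46.5, 50.6 and 52.7 FPKM with siC and 50.2, 49.7 and 46.8 with siI1. Here the ranges overlapped and the log2 fold change was -0.03 (SE 0.06, adjusted p = 0.74 from limma). Its sign turned without siC replicate 3 of BE(2)-C, to 0.01, and without siI1 replicate 3, to 7.8e-04.

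BCL2L2 (ENSG00000129473, chromosome 14 from 23298790 to 23311751, plus strand) encodes BCL-W. It stood at 25.2, 25.3 and 26.8 FPKM with siC and 15.4, 12.8 and 12.7 with siI1 in Hep-G2, a log2 fold change of -0.91 (SE 0.08). BE(2)-C showed 8.48, 9.35 and 8.81 FPKM with siC against 7.37, 6.11 and 7.01 with siI1. BCL2L2 fell in this tested line, with a log2 fold change of -0.38 (SE 0.08, adjusted p = 0.016 from limma). All 3 siI1 libraries lay below the siC libraries in each line.

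BCL2 (ENSG00000171791, chromosome 18 from 63123346 to 63320128, minus strand), the founding member of the family, was scarce in Hep-G2. Its 0.115, 0.162 and 0.213 FPKM with siC came from 21, 26 and 37 reads, and its 0.0629, 0.0233 and 0.0445 FPKM with siI1 from 10, 4 and 7 reads. The siI1 libraries were lower, but the log2 fold change of -0.87 (SE 0.33) depended on the pseudocount, and was -1.73 with 0.01 and -0.16 with 1 in place of 0.1. BE(2)-C held 1.81, 2.19 and 2.36 FPKM with siC and 2.71, 2.95 and 2.36 with siI1 (305 to 492 reads). The lowest siI1 library fell within the siC range, and the log2 fold change was 0.32 (SE 0.14, adjusted p = 0.12 from limma). On recovered reads with limma voom, BCL2 passed the threshold in BE(2)-C (log2 fold change 0.34, adjusted p = 0.0073 from limma). This was the only 1 of 15 alternatives to call it, with adjusted p from 0.0073 to 0.30 over all of them in limma.

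The effector BAK1 (ENSG00000030110, chromosome 6 from 33572547 to 33580293, minus strand) moved in opposite directions in the lines. Hep-G2 gave 21.4, 22.1 and 20.4 FPKM with siC and 27.7, 30.5 and 28.9 with siI1, a log2 fold change of 0.44 (SE 0.06). Every siI1 library was higher. BE(2)-C gave 28.7, 28.4 and 27.9 FPKM with siC and 22.1, 23.8 and 21.4 with siI1. BAK1 fell there in 3 of 3 siI1 libraries, with a log2 fold change of -0.34 (SE 0.05, adjusted p = 0.0037 from limma).

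**Figure D1:**
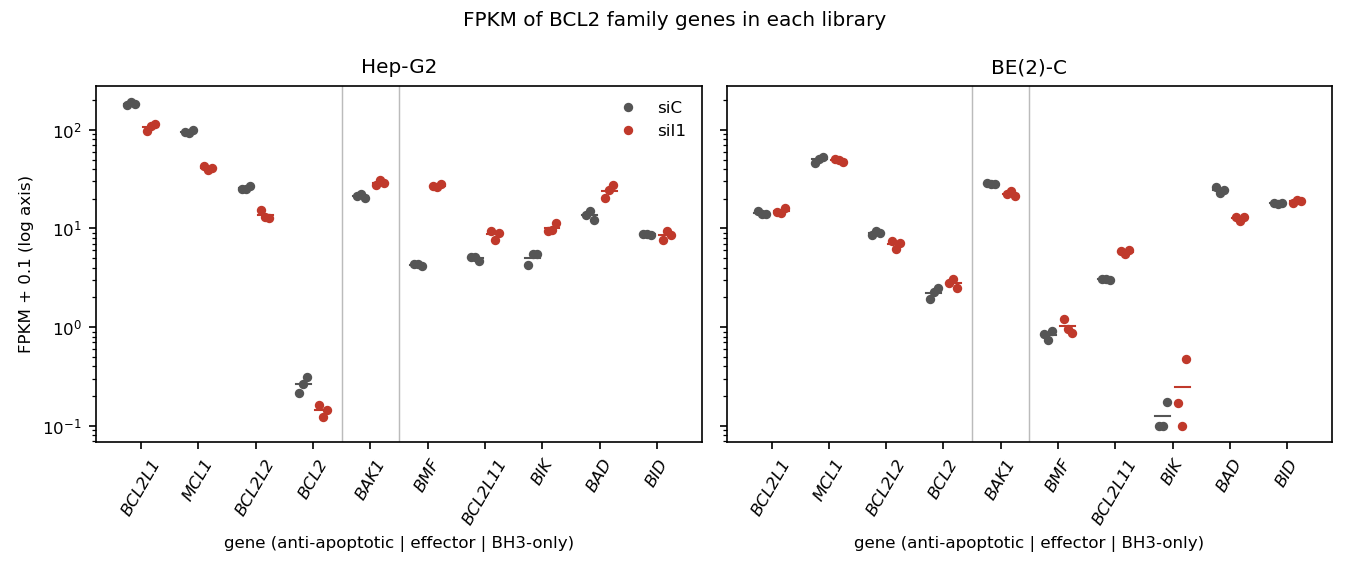
FPKM + 0.1 on a log axis for each of the 10 genes in each library (points) with the mean of 3 libraries (lines), siC in grey and siI1 in red, ordered as anti-apoptotic, effector and BH3-only genes. The 3 BMF points with siI1 lie between 26.0 and 28.4 FPKM in Hep-G2, all above the siC points, and overlap the siC points in BE(2)-C.

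Promoters are shown for the BH3-only members BMF, whose change chose the family, BCL2L11, which was higher with siI1 in both lines, and BAD, which moved in opposite directions. The sequences are from RefSeq (GRCh38.p14) and run from 250 bases before to 50 bases after a gene start, 5′ to 3′ on the strand of the gene: chr15:40108830-40109129 (minus strand) for BMF, chr2:111120664-111120963 (plus strand) for BCL2L11 and chr11:64284655-64284954 (minus strand) for BAD. Capitals mark matches on either strand to any of the 5 motifs searched.
BMF: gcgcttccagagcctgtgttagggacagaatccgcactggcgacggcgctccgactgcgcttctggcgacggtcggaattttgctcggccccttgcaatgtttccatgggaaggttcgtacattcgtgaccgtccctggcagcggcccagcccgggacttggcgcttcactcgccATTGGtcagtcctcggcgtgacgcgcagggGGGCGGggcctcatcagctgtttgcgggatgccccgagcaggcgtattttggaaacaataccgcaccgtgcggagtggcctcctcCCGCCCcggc
BCL2L11: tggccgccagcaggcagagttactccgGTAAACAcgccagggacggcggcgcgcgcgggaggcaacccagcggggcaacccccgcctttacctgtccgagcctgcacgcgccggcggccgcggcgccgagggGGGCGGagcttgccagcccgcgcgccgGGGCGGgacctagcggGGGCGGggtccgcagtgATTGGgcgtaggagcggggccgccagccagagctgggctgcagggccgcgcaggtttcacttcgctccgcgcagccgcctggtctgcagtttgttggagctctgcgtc
BAD: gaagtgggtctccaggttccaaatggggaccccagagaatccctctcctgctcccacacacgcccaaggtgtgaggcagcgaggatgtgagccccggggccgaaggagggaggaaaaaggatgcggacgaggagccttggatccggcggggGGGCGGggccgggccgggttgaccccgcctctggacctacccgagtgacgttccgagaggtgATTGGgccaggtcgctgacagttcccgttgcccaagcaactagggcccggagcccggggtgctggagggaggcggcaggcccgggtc
The forkhead core, searched for as TGTTTAC, was found in 3.42% of all 35116 promoter windows of this length. The GC box, searched for as GGGCGG, was found in 44.95%, and the E-box, written as CACGTG, in 7.26% of the windows. The motif spelled CCAAT was found in 34.6%, and the motif spelled TATAAA in 11.5%. The BMF window held 2 GC boxes and 1 match to CCAAT, and another BMF window, not shown, held none of the 5 motifs. The BCL2L11 window held 1 forkhead core, 3 GC boxes and 1 match to CCAAT, while the BAD window held 1 GC box and 1 match to CCAAT. Of the 10 genes, 7 were matched, with 14 windows, and BCL2L2, MCL1 and BIK were not. These matches describe letters and not the binding of a factor.

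BMF (ENSG00000104081, chromosome 15 from 40087890 to 40108892, minus strand) encodes a BH3-only protein that can be held by the dynein light chain DYNLL2. Hep-G2 had 4.22, 4.27 and 4.07 FPKM of BMF with siC and 26.7, 26.0 and 28.4 with siI1 (317 to 2066 reads). The mean with siI1 was 6.46 times that with siC, all siI1 libraries lay above all siC libraries, and the log2 fold change of 2.66 (SE 0.06) ranked 97 from the top among 19436 tested genes. These values chose the family. BE(2)-C had 0.742, 0.644 and 0.814 FPKM of BMF with siC and 1.10, 0.857 and 0.780 with siI1 (45 to 93 reads). The lowest siI1 library fell within the siC range, and the log2 fold change of 0.28 (SE 0.19) was not called (adjusted p = 0.33 from limma). Omission of 1 library gave values from 0.14 to 0.37, none of them called.

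BCL2L11 (ENSG00000153094, chromosome 2 from 111119378 to 111168444, plus strand) encodes BIM, which binds the anti-apoptotic members. Hep-G2 had 4.99, 5.07 and 4.56 FPKM of BCL2L11 with siC and 9.43, 7.61 and 8.83 with siI1, a log2 fold change of 0.81 (SE 0.10). BE(2)-C had 2.97, 2.96 and 2.90 FPKM with siC and 5.80, 5.42 and 5.89 with siI1. BCL2L11 rose in this tested line, with all siI1 libraries above all siC libraries and a log2 fold change of 0.93 (SE 0.07, adjusted p = 3.1e-04 from limma).

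BAD (ENSG00000002330, chromosome 11 from 64269830 to 64284704, minus strand), a BH3-only protein kept inactive by phosphorylation, had 13.7, 14.9 and 12.1 FPKM with siC and 20.3, 24.5 and 27.5 with siI1 in Hep-G2. The siI1 libraries were all higher, at a log2 fold change of 0.82 (SE 0.12). BE(2)-C values were 26.1, 22.5 and 24.3 FPKM with siC and 12.8, 11.9 and 13.1 with siI1. BAD fell there in 3 of 3 siI1 libraries, with a log2 fold change of -0.94 (SE 0.07, adjusted p = 2.9e-04 from limma).

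BIK (ENSG00000100290, chromosome 22 from 43110750 to 43129712, plus strand) encodes a BH3-only protein of the endoplasmic reticulum. Hep-G2 had 4.12, 5.39 and 5.41 FPKM of BIK with siC and 9.23, 9.66 and 11.4 with siI1 (61 to 145 reads). The siI1 libraries were all higher, at a log2 fold change of 1.01 (SE 0.13). At most 5 reads of BIK were found in a BE(2)-C library and 3 of the 6 libraries were at 0, so no fold change is given.

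BID (ENSG00000015475, chromosome 22 from 17734138 to 17774770, minus strand) links death receptors to mitochondria after cleavage by a caspase. Hep-G2 libraries held 8.78, 8.75 and 8.39 FPKM with siC beside 7.45, 9.24 and 8.58 with siI1. These overlapped, and the log2 fold change of -0.04 (SE 0.09) turned to 6.4e-04 with median centring of the libraries and to 0.04 without siI1 replicate 1, but was -0.21 with equal sums of FPKM. BE(2)-C libraries held 18.1, 17.6 and 18.0 FPKM with siC and 18.2, 19.1 and 18.9 with siI1. The siI1 libraries lay just above the siC libraries, but the log2 fold change of 0.07 (SE 0.04) was not called (adjusted p = 0.30 from limma).

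Reads of genes that overlap members are uncertain, since the libraries were strand-specific but the strand setting of the counting is not given in the sources used here. The antisense gene BMF-AS1 had a mean of 0.603 FPKM with siC and 2.55 with siI1 in Hep-G2, on at most 21 reads in a library. ABALON, antisense to BCL2L1, had means of 3.20 and 1.43 FPKM there, and ADAMTSL4, opposite MCL1, of 4.48 and 7.69. MIR4435-2HG, antisense to BCL2L11, went from 7.86 to 12.01 FPKM in Hep-G2 and from 1.54 to 1.22 in BE(2)-C. It had up to 1600 reads in a library, against at most 849 for BCL2L11. GPR137, opposite BAD, went from 5.70 to 8.21 FPKM in Hep-G2 and from 5.20 to 4.51 in BE(2)-C, the same direction as BAD in each line. It had up to 493 reads in a library, against at most 641 for BAD. The part of such reads in the values of the members was not tested. BCL2L2-PABPN1, on the same strand as BCL2L2, had at most 27 reads in a library against at least 362 for BCL2L2. PPP1R3E, opposite BCL2L2, had up to 595 reads and went from 4.83 to 7.14 FPKM in Hep-G2.

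Of the 10 genes in Hep-G2, 8 were called, 5 higher and 3 lower with siI1, beside 44.8% of all tested genes, 21.9% higher and 23.0% lower. Nothing is read from this count, since the Hep-G2 comparison chose the family. Of the 9 genes tested in BE(2)-C, 4 were called, BCL2L11 higher and BCL2L2, BAK1 and BAD lower, beside 28.2% of all tested genes, 13.3% higher and 14.8% lower. At an adjusted p below 0.01, 3 of these 4 were called, without BCL2L2, beside 2614 of all 18656 tested genes. The median log2 fold change of the 9 genes was 0.06, beside 0.02 over all genes tested in BE(2)-C. Giving the Hep-G2 libraries equal sums of FPKM shifted the median over all tested genes by -0.15 on the log2 scale. The called genes were then 3206 higher and 5839 lower of 19453, in place of 4250 and 4463 of 19436, so the balance of directions rests on the scaling. BMF then had a log2 fold change of 2.50, BCL2L11 of 0.64, BAD of 0.65, BIK of 0.85 and BAK1 of 0.28, against -0.95 for BCL2L1, -1.08 for BCL2L2, -1.39 for MCL1, -0.94 for BCL2 and -0.21 for BID. The same scaling gave -0.32 for BAK1 and -0.92 for BAD in BE(2)-C.

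**Figure D2:**
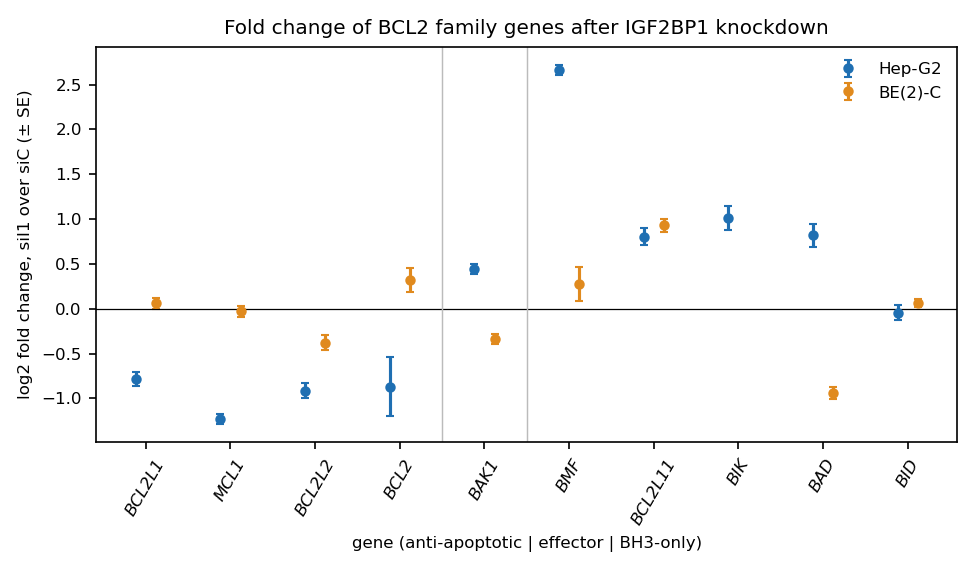
Log2 fold change of siI1 over siC with its standard error for the 10 genes in Hep-G2 (blue) and BE(2)-C (orange), with no BE(2)-C point for BIK. BAK1 (0.44 and -0.34) and BAD (0.82 and -0.94) lie above 0 in Hep-G2 and below 0 in BE(2)-C, and BCL2L11 (0.81 and 0.93) above 0 in both.

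The log2 fold change in Hep-G2 minus that in BE(2)-C was 2.39 (SE 0.17) for BMF, 1.76 (SE 0.15) for BAD and 0.78 (SE 0.08) for BAK1. For the anti-apoptotic genes this difference was -1.20 (SE 0.08) for MCL1, -0.85 (SE 0.10) for BCL2L1, -0.54 (SE 0.12) for BCL2L2 and -1.19 (SE 0.29) for BCL2. The BCL2 difference includes its Hep-G2 value, which rests on 4 to 37 reads and depended on the pseudocount. The difference was nearer 0 for BCL2L11, at -0.12 (SE 0.12), and for BID, at -0.11 (SE 0.10). These differences include the comparison that chose the family and were not tested.

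The order of the FPKM levels differed between the lines. BCL2L1 led with siC in Hep-G2, followed by MCL1, BCL2L2, BAK1, BAD and BID, with no overlap between neighbours. BMF took place 9 of 10 there with siC and place 4 with siI1, where its libraries overlapped those of BAK1 and BAD. BIK and BCL2L11 overlapped with siC, and BIK stood apart from BAD and BCL2L2 but overlapped BCL2L11 with siI1, as did BID. MCL1 led in BE(2)-C with either siRNA, followed by BAK1, and BMF and BIK were lowest, with no overlap between neighbours. BAD went from place 3 with siC to place 5 with siI1 in that line.

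Summed by role, the anti-apoptotic members of Hep-G2 reached 298, 309 and 310.0 FPKM with siC and 155, 161 and 168 with siI1. The BH3-only members reached 35.8, 38.4 and 34.6 FPKM with siC and 73.2, 77.0 and 84.7 with siI1. The former sum was lower and the latter higher in every siI1 library. The anti-apoptotic over the BH3-only sum gave 8.33, 8.04 and 8.97 with siC and 2.12, 2.09 and 1.98 with siI1. The BH3-only sum includes BMF, whose rise in Hep-G2 chose the family, so the lower ratio with siI1 was in part fixed by that choice. It leaves out BBC3 and PMAIP1, BH3-only genes outside the chosen members. BMF made up 11.6% ± 0.38 of the BH3-only sum with siC and 34.6% ± 1.65 with siI1 (SD, n = 3 each). BAD held the largest share of it with siC, at 37.4% ± 1.97, and 30.7% ± 2.52 with siI1 (SD, n = 3 each). BCL2L1 and MCL1 made up 60.1% ± 1.44 and 31.4% ± 1.21 of the anti-apoptotic sum with siC (SD, n = 3 each).

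For BE(2)-C the anti-apoptotic sum came to 71.8, 76.2 and 77.9 FPKM with siC and 74.7, 73.0 and 72.3 with siI1. The BH3-only sum reached 48.0, 43.7 and 46.1 FPKM with siC and 38.0, 37.3 and 39.1 with siI1. The anti-apoptotic sums overlapped and the BH3-only sums were lower with siI1. Their ratio came to 1.496, 1.74 and 1.69 with siC and 1.97, 1.96 and 1.85 with siI1. BAD went from 52.9% ± 1.47 to 33.0% ± 1.03 of the BH3-only sum, and BCL2L11 from 6.42% ± 0.32 to 14.96% ± 0.38 (SD, n = 3 each). The sums rest on chosen members and were not tested.

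**Figure D3:**
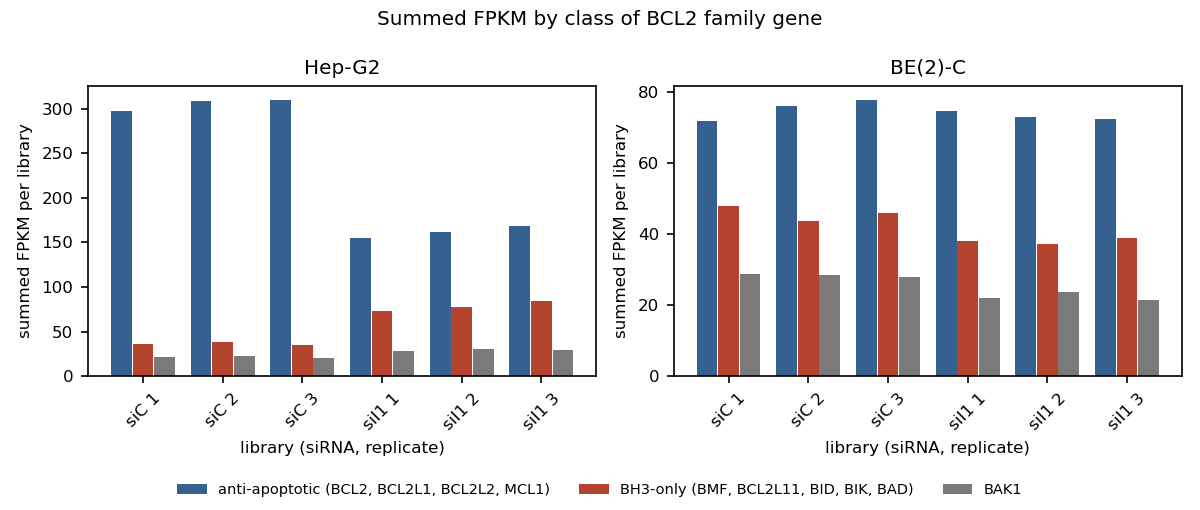
Summed FPKM in each library of the anti-apoptotic members (blue bars), the BH3-only members (red bars) and BAK1 (grey bars), with a different vertical scale for each line. The anti-apoptotic bars of Hep-G2 lie between 298 and 310.0 with siC and between 155 and 168 with siI1, and those of BE(2)-C between 71.8 and 77.9 over all libraries.

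The genes with a pattern most like that of BMF over the 12 libraries were SLC29A4, PIK3IP1, IGF2, HR and SORCS2, of 11083 protein-coding genes tested in both lines. Likeness was the mean absolute difference from BMF in log2(FPKM + 0.1) centred on the siC mean of the line, which was 0.12, 0.15, 0.17, 0.18 and 0.19 for these genes. SLC29A4, a monoamine transporter, went from 5.12 ± 0.25 to 29.3 ± 4.68 FPKM in Hep-G2 and from 4.38 ± 0.26 to 5.80 ± 0.31 in BE(2)-C (SD, n = 3 each). PIK3IP1, an inhibitor of phosphatidylinositol kinase signalling, went from 1.76 ± 0.20 to 10.3 ± 0.65 FPKM in Hep-G2 and from 2.67 ± 0.16 to 3.38 ± 0.71 in BE(2)-C (SD, n = 3 each). The growth factor IGF2 went from 50.9 ± 2.09 to 264 ± 17.0 FPKM in Hep-G2 and from 419 ± 40.3 to 520.1 ± 33.0 in BE(2)-C (SD, n = 3 each). HR and SORCS2 went from 0.312 and 0.869 FPKM to 1.95 and 6.62 in Hep-G2. HR went from 1.01 to 1.35 FPKM in BE(2)-C, while SORCS2 was not higher there, at 0.203 and 0.194 FPKM on 12 to 26 reads. These genes were picked for their pattern, so no test is given.

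Other genes of the pathway were taken from 5 lists and tested in each line. Over all tested genes, 44.8% were called in Hep-G2 (21.9% higher, 23.0% lower), against 28.2% for BE(2)-C (13.3% higher, 14.8% lower). Of the 14 other BCL2 family genes, 5 were higher and 3 lower of 10 tested in Hep-G2, and 4 higher and 1 lower of 12 tested in BE(2)-C. Of the 13 genes of the apoptosome and released mitochondrial proteins, all were tested, with 5 higher and 4 lower in Hep-G2, and 2 higher and 3 lower in BE(2)-C. The inhibitors of apoptosis with CFLAR, 8 genes, had 5 lower and 0 higher of 8 tested in Hep-G2, and 1 higher and 1 lower of 6 tested in BE(2)-C. The death receptor branch, 11 genes, had 6 lower and 0 higher of 10 tested in Hep-G2, and 4 lower and 0 higher of 7 tested in BE(2)-C. Of the 15 partners and regulators, 5 were higher and 6 lower of 15 tested in Hep-G2, and 4 higher and 3 lower of 14 tested in BE(2)-C. The medians of the log2 fold change of these lists, in this order, were 0.34, -0.02, -0.49, -0.44 and -0.29 in Hep-G2, beside 0.01 over all tested genes. For BE(2)-C they were 0.09, -0.20, 0.20, -0.28 and 0.04, beside 0.02.

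The effector BAX, named after its values were seen, rose in Hep-G2 from 68.1 ± 3.12 to 141 ± 17.0 FPKM (SD, n = 3 each), a log2 fold change of 1.04 (SE 0.10, adjusted p = 2.0e-04 from limma). It had a log2 fold change of -0.17 (SE 0.07, adjusted p = 0.11 from limma) in BE(2)-C, where 2 of 15 alternatives called it. BOK, a relative of the effectors, rose in both lines. Its log2 fold change was 0.92 in Hep-G2 (adjusted p = 4.6e-04) and, on 20 to 94 reads, 1.71 in BE(2)-C (adjusted p = 3.4e-04). With log2(FPKM + 1) the latter was 0.995, near that of Hep-G2. The mitophagy receptors BNIP3L and BNIP3 rose in both, BNIP3L by 0.85 and 0.38 and BNIP3 by 0.48 and 0.17 on the log2 scale, with the Hep-G2 value first. The BNIP3 call in BE(2)-C was lost in 6 of 15 alternatives. The BH3-only gene BBC3 rose in Hep-G2 from 4.36 ± 0.66 to 11.5 ± 1.80 FPKM (SD, n = 3 each), a log2 fold change of 1.38 (adjusted p = 4.7e-04), and had -0.07 in BE(2)-C (adjusted p = 0.64). PMAIP1, another BH3-only gene named after its values were seen, went the other way in Hep-G2 and fell by 0.80 on the log2 scale (adjusted p = 0.0016), beside -0.22 in BE(2)-C (adjusted p = 0.19). The anti-apoptotic gene BCL2A1 had 31, 41 and 40 reads with siC and 0, 1 and 1 with siI1 in Hep-G2. It passed the filter through siC alone and is among the genes counted as lower, but its log2 fold change, -4.12, depended on the pseudocount. BCL2L12 fell in BE(2)-C, with a log2 fold change of -0.49 (adjusted p = 0.0040).

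Cytochrome c (CYCS) and AIFM1 fell in both lines. Their log2 fold changes in Hep-G2 were -0.59 and -0.32, against -0.41 and -0.24 for BE(2)-C. HTRA2 and DIABLO, antagonists of the inhibitors of apoptosis, rose in both, HTRA2 by 0.48 and 0.27 and DIABLO by 0.43 and 0.52 on the log2 scale, with the Hep-G2 value first. The DIABLO call in Hep-G2 was lost in 9 of 15 alternatives, among them the omission of each library in turn, and the HTRA2 call in BE(2)-C in 5 of 15. ENDOG, a mitochondrial nuclease, fell in BE(2)-C, with a log2 fold change of -0.53 (adjusted p = 0.0013).

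The caspase inhibitor XIAP and its relative BIRC3 fell in Hep-G2, with log2 fold changes of -0.85 and -2.07 (adjusted p = 0.0027 and 2.7e-04). The size for BIRC3, on 17 to 20 reads with siI1, depended on the pseudocount and ran from -2.54 to -0.82 over the alternatives. BIRC2 fell in Hep-G2 and rose in BE(2)-C, at -0.50 and 0.32, and the latter call was lost in 7 of 15 alternatives. BIRC5 (survivin) fell in BE(2)-C from 72.8 ± 1.92 to 46.8 ± 1.28 FPKM (SD, n = 3 each), a log2 fold change of -0.64 (adjusted p = 2.2e-04). Its log2 fold change of -0.27 in Hep-G2 was a call lost in 8 of 15 alternatives. Upstream of BID, the TRAIL receptor TNFRSF10B fell in both lines, at -0.92 in Hep-G2 and -0.64 in BE(2)-C, as did the TNF receptor TNFRSF1A, at -0.60 and, on 12 to 43 reads, -1.15. The latter value ran from -1.43 to -0.42 over the alternatives, with -0.42 at log2(FPKM + 1). TNFRSF10A fell in Hep-G2, at -1.09, and the adaptor TRADD in BE(2)-C, at -0.72.

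DYNLL2, a binding partner of BMF, rose in Hep-G2 from 35.4 ± 0.81 to 62.5 ± 2.23 FPKM (SD, n = 3 each), a log2 fold change of 0.82 (adjusted p = 3.7e-05), and had 0.11 in BE(2)-C (adjusted p = 0.14). The kinase PIM1 fell in both lines, at -0.91 on the log2 scale for Hep-G2 and -0.95 for BE(2)-C. AKT2 rose in both, at 0.64 and 0.18, with the BE(2)-C call lost in 8 of 15 alternatives. The kinase AKT1 rose in Hep-G2, at 0.25, a call lost with equal sums of FPKM, and fell in BE(2)-C, at -0.24, a call lost in 3 of 15 alternatives. HUWE1, a ubiquitin ligase of MCL1, and USP9X, a deubiquitinase of MCL1, fell in Hep-G2, at -0.29 and -0.31, and each call was lost in 8 of 15 alternatives. Both rose in BE(2)-C, at 0.23 and 0.25, calls lost in 5 and 4 of 15 alternatives. FBXW7, part of another ligase of MCL1, rose in BE(2)-C, at 0.68, beside -0.30 in Hep-G2 (adjusted p = 0.0029 and 0.10).

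**Figure D4:**
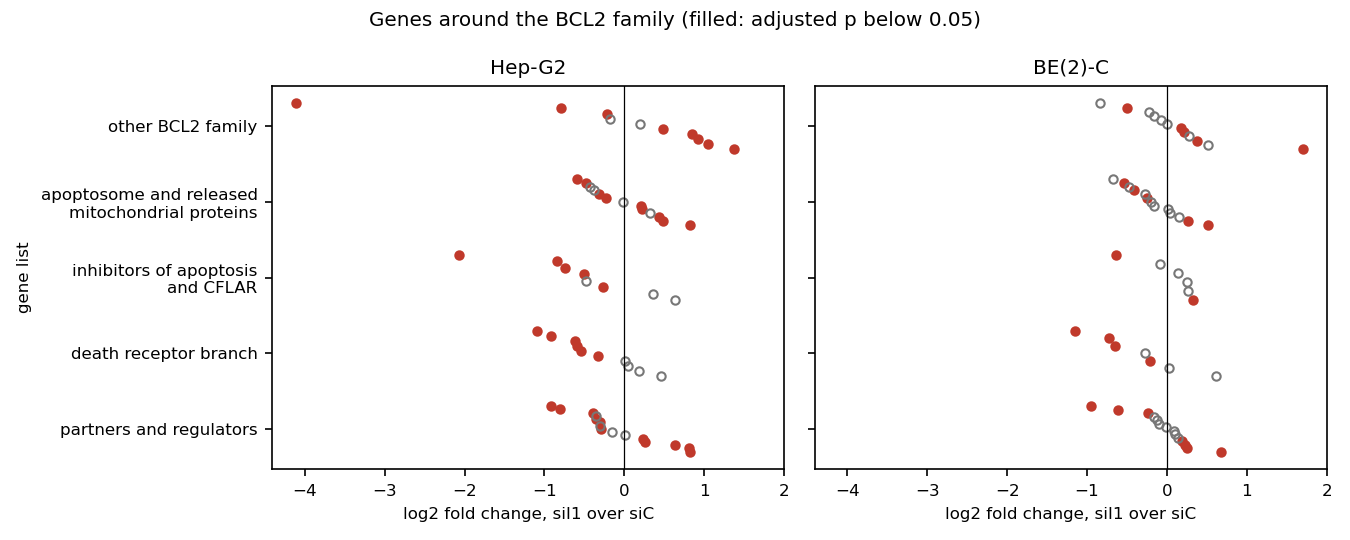
Log2 fold change of siI1 over siC for each tested gene (point) of the 5 lists in each line, filled where the adjusted p was below 0.05. No filled point of the inhibitors of apoptosis or the death receptor branch lies above 0 in Hep-G2, while BIRC2 does in BE(2)-C, at 0.32.

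The difference between the lines was called for 40.2% of all 15362 genes tested in both. It was called for 9 of 9 other BCL2 family genes, 4 of 13 apoptosome genes, 5 of 6 inhibitors of apoptosis, 3 of 7 death receptor genes and 7 of 14 partners and regulators. Among the named genes with this call, that of BOK was lost with log2(FPKM + 1), and those of BNIP3 and BIRC5 with equal sums of FPKM. DYNLL2 had a difference, Hep-G2 minus BE(2)-C, of 0.71 (adjusted p = 1.0e-05), BBC3 of 1.44 (adjusted p = 1.2e-04) and BAX of 1.21 (adjusted p = 2.3e-05). XIAP had -1.11 (adjusted p = 4.5e-04), FBXW7 -0.98 (adjusted p = 3.3e-04) and TRADD 1.19 (adjusted p = 0.0011). CYCS and PIM1 had differences of -0.18 and 0.04, which were not called (adjusted p = 0.17 and 0.80), and this does not show equal changes.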

How the data were processed

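Per the labels, reads were clipped with cutadapt 1.14, aligned to hg38 with HISAT2 2.1.0, handled with SAMtools 1.5, counted with featureCounts 1.5.3 and compared with edgeR 3.30.3. The authors deposited a file for each line, with FPKM per library. Its columns of log fold change, p-value and FDR come from the authors' own comparison and were not used. The header gives no unit, so FPKM was read from the values, which gave whole reads (within 0.01) for 100% of nonzero entries.

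Lines were compared in R 4.3.3 with limma 3.58.1, with a trend of variance on mean, moderated errors and p-values adjusted by Benjamini and Hochberg over every tested gene. The difference between lines was a contrast in a joint fit of the 12 libraries. Named are the 10 members, IGF2BP1, the genes of each list called in both lines, the 2 called genes per list and line with the largest absolute log2 fold change, and the 5 genes most like BMF. Some of these items are not reported here. BAX and PMAIP1 were added after their values were seen. The members and lists were chosen with earlier results of these data known. Alternatives changed the pseudocount, filter, variance model, scaling, replicate block, threshold and libraries; those for named list genes were added after seeing the data. Tables used data.table (1.17.8), Python 3.11.15, NumPy 2.4.6 and pandas 2.3.3, and plots Matplotlib 3.10.9. The fit was tested on simulated data.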

Additional observations from a re-analysis of the deposited data

Results flagged for a closer look

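BAK1 and BAD moved in opposite directions in the lines: every siI1 library lay above the siC libraries in Hep-G2 and below them in BE(2)-C. The log2 fold change in Hep-G2 minus that in BE(2)-C was 0.78 for BAK1 and 1.76 for BAD, and this difference was not tested. GPR137, opposite BAD, moved in the same direction as BAD in each line. The part of its reads in the BAD values was not tested. BIRC2, AKT1, HUWE1 and USP9X were called in opposite directions in the lines, and the difference itself was called, at -0.82 for BIRC2 (adjusted p = 4.7e-04 from limma), 0.49 for AKT1 (adjusted p = 6.8e-04), -0.52 for HUWE1 (adjusted p = 0.0047) and -0.55 for USP9X (adjusted p = 0.0038). Within a line, at least 1 call of each of these 4 genes was lost under some alternatives.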

How the results depend on the processing

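Of all tested genes, 8713 were called in Hep-G2, 5252 in BE(2)-C and 6180 for the difference. An adjusted p below 0.01 left 5721 and 2614 in the lines, as a stricter threshold must lower a count. Leaving out 1 library gave 6851 to 9428 calls in Hep-G2, 3431 to 4455 in BE(2)-C and 5307 to 7033 for the difference. The BE(2)-C count was 3487 without siI1 replicate 2 and 3431 without siI1 replicate 3, with fewer libraries. With the replicate number as a replicate block, 8820, 4672 and 6295 genes were called. Deviations from group means were correlated across genes between siC and siI1 libraries. Same-numbered libraries had correlations of 0.33, 0.32 and -0.08 for Hep-G2, and for BE(2)-C of 0.20, -0.02 and 0.02. Libraries of different number had -0.45 to 0.31 for Hep-G2 and -0.14 to 0.12 for BE(2)-C. These values do not settle whether the numbers mark pairs, and the fit without a block was kept. Over all alternatives, 3 to 5 members were called in BE(2)-C, beside 2614 to 6530 of all tested genes. Signs turned for BID in Hep-G2 (6.4e-04 with median centring, 0.043 without siI1 replicate 1), MCL1 in BE(2)-C (0.010 without siC replicate 3, 7.8e-04 without siI1 replicate 3), and the differences of TNFRSF1A (-0.16 with log2(FPKM + 1)) and PIM1 (-0.15 with equal sums of FPKM, -0.035 without BE(2)-C siC replicate 1); the cause was not tested. Leaving out 1 library gave values from -0.11 to 0.043 for BID in Hep-G2, from -0.080 to 0.010 for MCL1 in BE(2)-C and from -0.035 to 0.092 for the difference of PIM1. Depth limited BCL2 in Hep-G2 (4 to 37 reads), BMF in BE(2)-C (45 to 93 reads) and BIK in BE(2)-C (0 to 5 reads).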
